A study of Mus musculus with 2 samples.

Results

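Adult mouse ventricular heart muscle cells sorted live were set against ventricular cells sorted after ethanol fixation, across all genes. The members were taken by the deposited group label (live or fixed) of the smaller of 2 single-cell studies, keeping each cell that reached 1000 gene UMIs and 500 genes with the ERCC spike-in rows left out. This gave 66 cells of 72 labelled, 31 of 36 live (86.1%, 95% exact Clopper-Pearson interval 70.5 to 95.3) and 35 of 36 fixed (97.2%, 85.5 to 99.9), out of 404 labelled and 347 kept cells in the whole series. Both groups were C57BL/6 wild-type adult mice. In both, the heart was digested by perfusion with collagenase and protease for 9 minutes at 1.5 mL per minute, the ventricle was minced, and the cells passed a 100 µm screen. The cells to be fixed, in 200 µL of saline buffer, then received 800 µL of 100% ethanol at -20 C in drops. Single cells were sorted into 96-well plates and profiled by SCRB-seq, which marks the 3' end of each polyadenylated RNA with a cell barcode of 6 bases and a unique molecular identifier (UMI) of 10 bases, pools the wells and amplifies the cDNA, here for 17 PCR cycles. The metadata name 1 library and no animal, so each group is 1 pool of cells without biological replicates, cells are not replicates of a condition, and no difference was tested. Every interval below covers counting error only.

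A ventricular myocyte is a large, rod-shaped cell packed with sarcomeres and mitochondria, and much of its polyadenylated RNA comes from genes of contraction and energy supply. It is easily injured when the heart is taken apart, and the digestion itself is known to switch on immediate-early genes, whose short-lived transcripts appear within minutes of a stimulus. Ethanol withdraws water from a cell and precipitates protein and nucleic acid in place without chemical cross-links, which lets cells be held and sorted later.

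The 6-base barcode that marks each well was not spread evenly over the groups, and 1 barcode of each kind is shown here with its G and C bases in capitals.
Live cell, 299762 gene UMIs: tattGt
Fixed cell, 267850 gene UMIs: ttaGtt
Fixed cell, 240243 gene UMIs: CCaCat
All 31 live cells had a barcode with 1 G or C. Among the fixed cells 8 barcodes had 1, 8 had 3, 2 had 4 and 17 had 5. Fixation and barcode composition therefore cannot be told apart over all cells. For most gene groups, the 8 fixed cells whose barcodes match the live ones are set beside the main values as barcode-matched values. The deepest of these 8 cells held 40.7% of their 658902 gene UMIs, so for several groups matched values are also given with equal weight per cell. All 72 labelled barcodes also occur in the other study of the series, where they mark other wells.

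Fixed cells gave more UMIs per cell, and also more spike-in UMIs. Gene UMIs per cell ran from 5316 over a median of 40367 to 299762 in live cells and from 3820 over 77150 to 267850 in fixed cells, so the ranges overlapped almost completely. ERCC spike-in RNA, synthetic transcripts whose amount per well is not given in the sources used here, gave 6 to 403 UMIs per live cell (median 69) and 89 to 532 per fixed cell (median 231). Set against the spike-ins, live cells had the larger yield, with a median of 555 gene UMIs per ERCC UMI against 326 in fixed cells. The pools held 2069946 live and 2848772 fixed gene UMIs, at 18.2 and 16.6 reads per UMI, and the 3 deepest cells held 38.8% of the live and 23.3% of the fixed UMIs. A fixed cell stood apart at 3820 gene UMIs with 522 ERCC UMIs, a ratio of 7.32.

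Fixed cells also showed more genes, a median of 5154 against 4068, but this turned round at equal depth. At 20000 UMIs per cell the expected number of genes had a median of 2957 in the 23 live cells and 2762 in the 34 fixed cells that reached that depth, and 2910 in the 7 of these fixed cells with matched barcodes. Deep fixed cells resembled each other more than deep live cells did: the correlation of log2(CPM + 50) over 1784 genes had a median of 0.65 between live cells, 0.65 between a fixed and a live cell, and 0.73 between fixed cells. Cells of 1 library share its amplification, and these values are a description. Fixed cells were also deeper, with a median of 77150 gene UMIs over all kept cells against 40367 in live cells. The part of depth in these correlations was not tested.

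**Figure D1:**
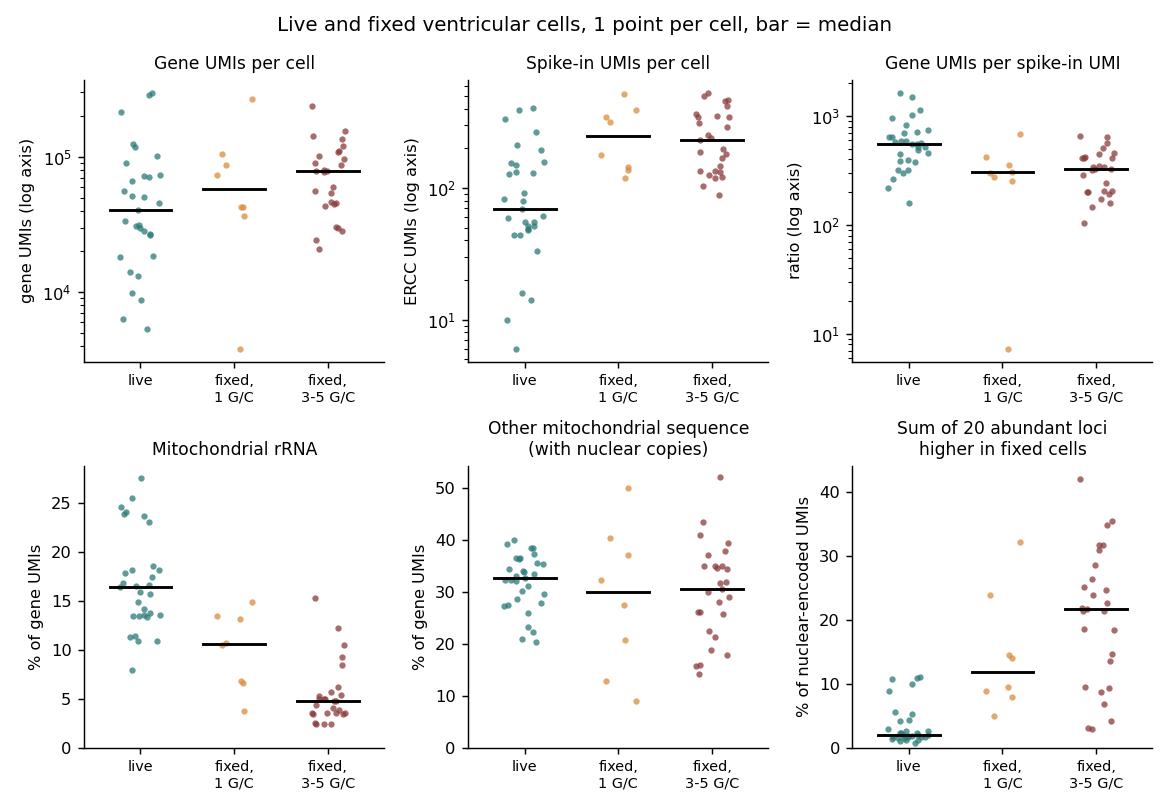
Measures per cell, 1 point per cell, for 31 live cells, 8 fixed cells with 1 G or C in the barcode and 27 fixed cells with 3 to 5; bars are medians, and the UMI and ratio axes are logarithmic. Spike-in UMIs were higher in both fixed groups, mitochondrial rRNA was highest in live cells (median 16.4%), intermediate in fixed cells with 1 G or C (10.6%) and lowest in the other fixed cells (4.74%), and the summed share of 20 abundant loci was higher in fixed cells.

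Levels are CPM, UMIs scaled to an equal nuclear-encoded total in each pool, a gene counts as measured with at least 30 UMIs over both pools, and it is called higher or lower where log2(CPM + 5) differs by at least 1.5-fold between fixed and live. Adding 5 CPM understates the ratio of low genes; folds printed with an interval are ratios of CPM without it. Of 7887 measured genes, 593 were higher in fixed cells (7.52%) and 2671 were lower (33.9%), and the median gene stood at -0.31 on the log2 scale. The split depends on the total chosen: 18.2% of called genes were higher here, 57.2% with edgeR's TMM factors and 62.3% with median-of-ratios factors, which moved the median gene by 0.41 and 0.46, while the spike-in total moved it by -0.53. Gene groups are therefore given by their median minus the median of all genes. Over 8 totals this relative median still shifted by 0.01 to 0.11 from the main value in the 31 lists with at least 8 measured members, and the side of 2 of them, cytosolic ribosomal proteins and the circadian clock, was not the same under every total. With matched barcodes (8 fixed, 31 live cells) 468 of 5664 genes were higher (8.26%) and 2386 lower (42.1%), and with equal weight per cell 12.5% were higher and 42.7% lower. These shares of all genes are the background for every matched count of a gene group below. The relative median lay on the other side of 0 with matched barcodes in 8 of the 31 lists. The overlap of the lower genes was 1585, which is 72.2% of the 2195 pooled and 66.4% of the 2386 matched calls. That of the higher genes was 171, or 64.8% of 264 pooled and 36.5% of 468 matched calls. The matched cells are part of the pools, so these overlaps are partly built in.

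**Figure D2:**
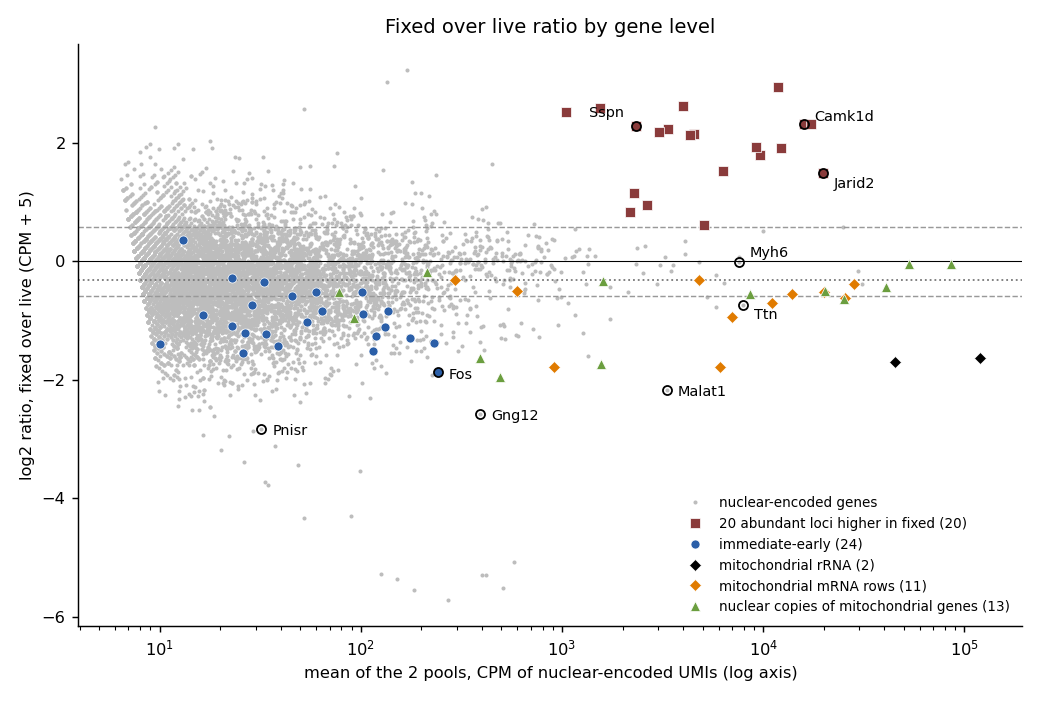
Log2 ratio of fixed over live, from CPM + 5, for each measured gene against the mean level of the pools on a logarithmic axis; dashed lines mark 1.5-fold and the dotted line the median gene at -0.31. Mitochondrial rRNA, 23 of 24 immediate-early genes and Malat1 lie below 0, and the 20 abundant loci lie above.

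A small set of very abundant loci took a larger share of the counts in fixed cells. Of 68 nuclear-encoded loci at 1000 CPM or more in fixed cells, 20 were higher there and 6 lower, where all genes had 7.52% higher and 33.9% lower. The floor was set on the fixed level alone, which favours loci higher in fixed cells, so the split is not a result about abundant loci. The 20, a set chosen by these ratios so that its direction is given, took 21.9% of the nuclear-encoded UMIs of fixed cells and 5.77% of those of live cells. Per cell their summed share ran from 2.93 over a median of 21.3 to 42.0% in fixed cells and from 0.780 over 1.99 to 11.1% in live cells. All 35 fixed cells lay above the live median and 0 live cells above the fixed median. Their share was smaller in fixed cells with 1 G or C in the barcode (median 11.8%) than in the other fixed cells (21.7%), and the first of these medians was above the highest live cell.

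Camk1d, a calcium/calmodulin-dependent kinase gene on chromosome 2 at 5293457 to 5714515 (GRCm38, minus strand), ranged over 2189, 23562 and 51665 CPM per fixed cell and 1212, 2144 and 11128 CPM per live cell (lowest, median, highest). No fixed cell lay below the live median. The pooled ratio was 4.97-fold (4.85 to 5.09). Jarid2, a cofactor of the Polycomb repressive complex, had 10378 CPM among live and 29072 CPM among fixed cells and was 2.80-fold higher (2.75 to 2.85). Kcnip1, a subunit that modulates voltage-gated potassium channels, was 4.96-fold higher (4.85 to 5.08), at 28894 against 5823 CPM. Arhgap21, which encodes a GTPase-activating protein, was 3.75-fold and Tmem56 4.40-fold higher, and the ribosome assembly factor gene Cmss1 3.49-fold. Sspn, which encodes sarcospan of the dystrophin complex, was 4.87-fold higher (4.58 to 5.18), at 3871 against 795 CPM. The same set held non-coding loci: Mir6240, at 20952 CPM against 2721 CPM, and Gm26917, named here after its values were seen, at 6869 against 1117 CPM. Gm26917 lies on chromosome 17 beside an annotated ribosomal RNA locus. Across the 31 live cells the other 19 loci had Spearman coefficients of 0.37 to 0.65 with Gm26917. Across the 35 fixed cells these were 0.04 to 0.30. Pairs among Camk1d, Arhgap21, Cmss1, Jarid2 and Tmem56 had 0.65 to 0.93 in live cells and 0.82 to 0.98 in fixed cells. With Myh6 the loci of the set had -0.65 to -0.33 in live cells and -0.003 to 0.200 in fixed cells. CT010467.1, a locus outside the set, had 0.46 with Gm26917 in live cells and -0.16 in fixed cells. The cells share a library and depth, and all these coefficients are descriptions. The nature of the molecules counted at these loci was not tested.

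With matched barcodes all 12 of the highest named genes kept their direction (log2 0.56 to 2.34), and 11 were still at least 1.5-fold higher. The matched cells are part of the pools by which these genes were picked, so this agreement is partly built in. Less abundant genes among the 12 were B3gnt7, a glycosyltransferase gene (225 fixed and 17 live UMIs, 8.10-fold, 4.95 to 14.2), Coa3, an assembly factor of cytochrome c oxidase (3.94-fold, 2.88 to 5.50), Lsm4 of the spliceosomal Lsm ring (3.35-fold), Mrps14 of the mitochondrial ribosome (3.47-fold), and Kxd1, a lysosome-positioning gene (4.35-fold). Of these, Lsm4 was nearest to no difference with matched barcodes (log2 0.56). Tmem82 (3.47-fold) and the dynein gene Dnah7b (3.04-fold) were also among them.

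The lowest named genes were below the live median in 24 to 35 of the 35 fixed cells. Gng12, a G-protein gamma subunit gene on chromosome 6, ran from 0 over 81.3 to 464 CPM per fixed cell and from 94.4 over 662 to 1373 CPM per live cell. All 35 fixed cells lay below the live median and 25 of 31 live cells above the highest fixed cell. The pooled difference was 6.21-fold (5.42 to 7.14) or -2.58 on the log2 scale, the lowest of the 12. Ktn1, an endoplasmic reticulum membrane protein gene that binds kinesin, had a fixed median of 55.8 and a live median of 349 CPM, and 17 live cells exceeded every fixed cell. It was 3.96-fold lower (3.38 to 4.65). Syn1 (6.27-fold), the stress-responsive transcription factor gene Nfat5 (5.01-fold), the RNA transport gene Stau2 (4.84-fold), Tango6 (5.23-fold), the adaptor-associated kinase gene Aak1 (4.55-fold), the phosphate exporter gene Xpr1 (4.32-fold), Rbm27 (4.96-fold), the histone methyltransferase gene Ash1l (4.22-fold) and Sash1 (4.70-fold) were lower on fewer UMIs, 27 to 172 per pool. All 12 of the lowest named genes, with Fos, were at least 1.5-fold lower with matched barcodes (log2 -3.04 to -0.88). Here too the matched cells are part of the pools that picked the genes.

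Immediate-early genes encode transcription factors and regulators that answer a stimulus without new protein synthesis. Of 24 measured, 0 were higher and 19 lower in fixed cells, where the whole table had 7.52% higher and 33.9% lower. Their median stood at -0.75 relative to all genes, and it lay below that of all genes in all 22 settings (-0.85 to -0.37, the last with matched barcodes, where 15 of 22 were lower, and -0.50 with these at equal weight per cell). Their summed level per cell ran from 944 over 2475 to 5161 CPM in live cells and from 0 over 1068 to 3054 CPM in fixed cells, so the groups overlapped. Fos, which pairs with Jun proteins in the AP-1 factor, ran from 0 over 82.0 to 319 CPM per fixed cell and from 0 over 386 to 1681 CPM per live cell. All 35 fixed cells lay below the live median and 18 live cells above the highest fixed cell. Its partner Jun was lower at -1.26 on the log2 scale, Junb 1.90-fold, the stress factor gene Atf3 2.22-fold, the Krüppel-like factor genes Klf2 and Klf10 3.16-fold and 3.83-fold, and Socs3, a feedback inhibitor of cytokine signalling, 2.71-fold. Nr4a1, an orphan nuclear receptor gene, had 37.7 CPM among live and 28.5 CPM among fixed cells and Ier3 10.8 and 15.3 CPM, neither at 1.5-fold.

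The promoter windows of 3 of these genes show sequence elements known from genes of this kind, with the match in capitals; each runs from 250 bases before to 50 after the start site, and the sequences are from RefSeq (GRCm38.p6).
Fos, chr12:85473640-85473939, plus strand, TATAAA in capitals: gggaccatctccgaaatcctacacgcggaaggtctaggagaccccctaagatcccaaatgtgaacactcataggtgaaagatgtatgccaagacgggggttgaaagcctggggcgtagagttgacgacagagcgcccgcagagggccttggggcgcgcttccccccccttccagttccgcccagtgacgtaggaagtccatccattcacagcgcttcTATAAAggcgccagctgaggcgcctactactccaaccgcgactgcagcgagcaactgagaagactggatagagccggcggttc
Zfp36, chr7:28379179-28379478, minus strand, CArG box in capitals: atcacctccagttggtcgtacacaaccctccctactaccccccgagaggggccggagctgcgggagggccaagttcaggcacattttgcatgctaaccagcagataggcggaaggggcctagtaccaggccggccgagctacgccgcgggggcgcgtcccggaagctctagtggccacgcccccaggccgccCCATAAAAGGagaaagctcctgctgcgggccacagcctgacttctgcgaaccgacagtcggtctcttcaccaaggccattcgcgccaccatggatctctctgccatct
Btg2, chr1:134079106-134079405, minus strand, TGACGTCA in capitals: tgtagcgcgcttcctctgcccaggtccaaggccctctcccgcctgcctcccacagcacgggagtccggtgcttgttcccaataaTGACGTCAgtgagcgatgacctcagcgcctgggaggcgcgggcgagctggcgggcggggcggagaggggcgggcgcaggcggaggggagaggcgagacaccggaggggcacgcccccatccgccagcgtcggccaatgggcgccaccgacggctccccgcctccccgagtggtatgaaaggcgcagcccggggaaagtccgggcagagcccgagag
Each motif was searched on both strands in the windows of 27025 genes. Of the full immediate-early list, measured or not, 24 genes had a window. The CArG box, bound by serum response factor, was in a window of 2 of these 24 genes and of 1.81% of all genes. TGACGTCA, bound by CREB, was found for 3 of 24 and 2.03%. TGANTCA, which takes in the AP-1 site, was found for 1 of 24 and 8.97%, and TATAAA for 5 of 24 and 15.7%. A match is only a description of the letters in the window. Zfp36, which encodes a protein that speeds the decay of messages, was 3.03-fold lower in fixed cells (2.46 to 3.75), and Btg2, an antiproliferative gene, 2.68-fold (2.32 to 3.10).

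**Figure D3:**
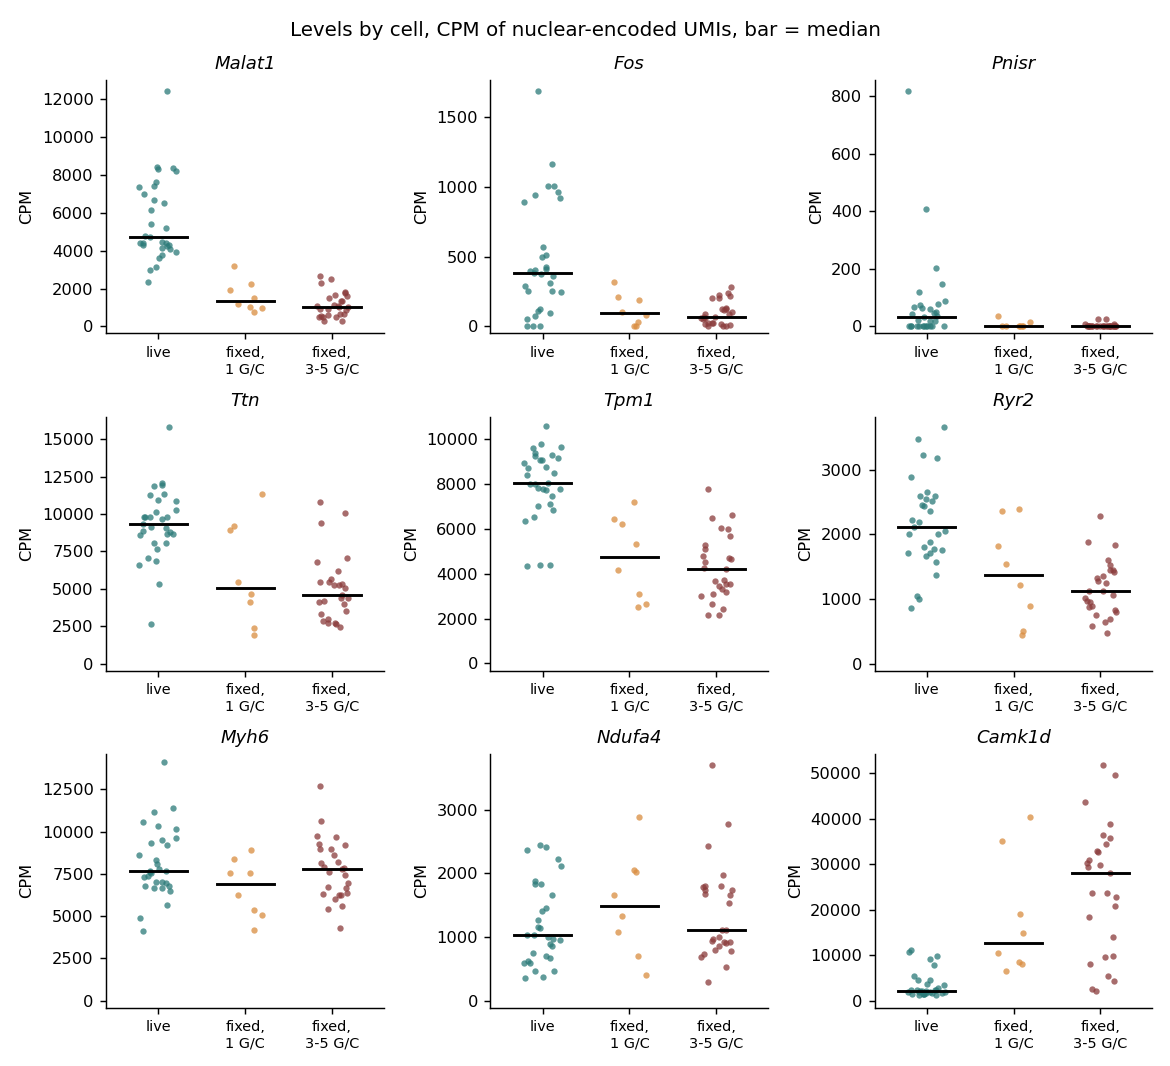
CPM of 9 genes in each cell, 1 point per cell, for live cells, fixed cells with 1 G or C in the barcode and fixed cells with 3 to 5; bars are medians. Malat1, Fos, Tpm1 and Ryr2 have lower medians in both fixed groups, Myh6 and Ndufa4 overlap throughout, and Camk1d is higher in fixed cells.

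Among 8 measured long non-coding RNAs known to stay in the nucleus, 0 were higher and 4 lower (50.0%, where all genes had 33.9%). Xist was 1 of the lower, at 22.3 fixed and 69.4 live CPM, and the animals of each pool are not named. The summed level of the 8 ran from 3114 over 5544 to 14499 CPM per live cell and from 567 over 1652 to 4077 CPM per fixed cell. Malat1, the abundant RNA of nuclear speckles (chromosome 19), carried most of that sum, and 28 of 31 live cells exceeded every fixed cell. It stood at -2.18 on the log2 scale over all cells and -1.79 with matched barcodes. Airn, the imprinted RNA that runs antisense to Igf2r and whose reads cannot be told from those of that gene if counting ignored strand, was 2.47-fold lower (2.09 to 2.92) but only -0.47 on the log2 scale with matched barcodes. The host genes Mir22hg (3.61-fold) and Mir99ahg (1.89-fold) were lower too. Neat1, which builds paraspeckles, ran from 60.4 over 404 to 1212 CPM per fixed cell and from 0 over 472 to 1263 CPM per live cell, with nearly complete overlap. The median of the group lay below that of all genes in 21 of 22 settings (-1.01 to 0.09). With matched barcodes 1 was higher and 3 lower of 6, with a relative median of -0.29, or 0.09 with equal weight per cell.

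Regulators of splicing have many transcripts that are known to be held in the nucleus with introns still in place. Of 38 measured, 1 was higher and 24 lower (63.2%), where all genes had 7.52% higher and 33.9% lower. Their median lay below that of all genes in all 22 settings (-0.78 to -0.36). With matched barcodes 2 were higher and 20 lower of 37, where all genes had 8.26% higher and 42.1% lower. Pnisr, a serine- and arginine-rich splicing protein gene, had 10 UMIs in fixed and 89 in live cells, a 14.5-fold difference (7.55 to 31.4). Its fixed median was 0 and 15 of 31 live cells lay above the highest fixed cell. Rbfox1, a heart and brain splicing factor gene, was 3.96-fold lower (3.22 to 4.90), Son, a scaffold of nuclear speckles, 2.68-fold, Mbnl2 2.45-fold and Rbm20, which controls titin splicing, 2.07-fold. Clk4, a kinase of splicing factors, was the higher member, on 31 and 7 UMIs, and Hnrnpu had 88.3 CPM among live and 97.7 CPM among fixed cells.

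Sarcomere genes parted by filament in their list medians, while the summed level of both lists was lower in fixed cells. The thick filament and M-band held 2 higher and 1 lower of 9 members, with a median 0.44 above that of all genes (0.15 to 0.54 over 22 settings). The thin filament held 0 higher and 5 lower of 8, with a median of -0.38 relative to all genes (-0.48 to -0.23). Over all genes 7.52% were higher and 33.9% lower. The sums were 25926 fixed and 29884 live CPM for the thick filament list and 16985 and 23461 CPM for the thin. With matched barcodes the thick filament held 1 higher and 1 lower, with a relative median of 0.18, and the thin filament 0 higher and 6 lower, with -0.33. Myh6, the main ventricular myosin heavy chain of the mouse, ran from 4194 over 7574 to 12707 CPM per fixed cell and from 4146 over 7687 to 14092 CPM per live cell, so the groups covered the same range. The M-band gene Myom2 was 1.89-fold higher (1.61 to 2.22). Ttn, the titin gene, was the lower member, at 5965 against 9918 CPM (1.66-fold, 1.62 to 1.70), but reached only -0.24 on the log2 scale with matched barcodes. Tpm1, which encodes the tropomyosin that covers the myosin sites on actin, ran from 2162 over 4199 to 7774 CPM per fixed cell and from 4364 over 8052 to 10574 CPM per live cell. All 35 fixed cells lay below the live median of Tpm1, and 20 of 31 live cells above the highest fixed cell. Lmod2, which elongates thin filaments, was 2.87-fold lower (2.57 to 3.21), also with all 35 fixed cells below the live median, and Tnnt2 of the troponin complex 1.53-fold lower. Tnni3, the inhibitory subunit of the same complex, had 3175 CPM among live and 3325 CPM among fixed cells, 1.05-fold apart.

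Z-disc and cytoskeletal genes held 0 higher and 6 lower of 14 (42.9%), not far from the 33.9% lower among all genes, and 0 and 6 with matched barcodes. Nexn (2.41-fold) and Xirp2 (2.11-fold), which bind actin or its anchors at the Z-disc and intercalated disc, were lower, and Des and Tcap, the genes of the intermediate filament desmin and of a titin cap, were not (1.06-fold higher and 1.05-fold lower). For this group and for the calcium handling group the sign of the plain median turned with the total, from -1.13 and -1.04 with the spike-in total to 0.06 and 0.12 with median-of-ratios factors, while both stayed below the median of all genes in all 22 settings (-0.32 to -0.06 and -0.33 to -0.03). Calcium handling genes held 0 higher and 7 lower of 18, and the 38.9% lower was near the 33.9% among all genes. With matched barcodes 8 were lower, with a relative median of -0.05, and with equal weight per cell 12, with -0.32. Ryr2, the calcium release channel of the sarcoplasmic reticulum, ran from 434 over 1129 to 2399.7 CPM per fixed cell and from 863 over 2108 to 3658 CPM per live cell, and 12 live cells lay above every fixed cell. Cacna1c, the pore of the L-type calcium channel, was 2.33-fold lower (2.19 to 2.47), its beta subunit gene Cacnb2 2.56-fold and the release-channel anchor Trdn 2.22-fold. Atp2a2, the pump that returns calcium to the reticulum, had 3662 CPM among live and 3488 CPM among fixed cells and did not reach 1.5-fold.

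At the membrane, the dystrophin complex and repair genes split widely, where over all genes 7.52% were higher and 33.9% lower. Of 14 measured, 3 were higher and 7 lower over all cells, and 2 and 6 with matched barcodes, where the relative median was -0.09 (-0.31 with equal weight per cell) beside -0.26. Dmd, the dystrophin gene, ran from 63.5 over 638 to 1557 CPM per fixed cell and from 378 over 1887 to 4169.8 CPM per live cell. All 35 fixed cells lay below the live median, 21 live cells lay above the highest fixed cell, and the pools were 3.03-fold apart (2.85 to 3.22). Dtna, which binds dystrophin, was 3.76-fold lower, whereas Sspn (above), the laminin gene Lamb2 (2.53-fold) and the caveolin gene Cav3 (2.36-fold) were higher. The intercalated disc held 0 higher and 4 lower of 10 (40.0%, near the 33.9% of all genes), with a relative median of -0.12 over all cells and 0.10 with matched barcodes; alpha-T-catenin, Ctnna3, was 2.07-fold lower, and Gja1, which encodes the ventricular gap junction protein, had 101 CPM among live and 118 CPM among fixed cells. Among 15 channel and pump genes, 2 were higher and 4 lower, and 1 and 5 with matched barcodes. Kcnd2, a channel of the transient outward current, was 2.96-fold lower (2.51 to 3.49).

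Energy genes of the nucleus lay above the median gene. Relative to all genes, the median was 0.67 for glucose uptake and glycolysis (0.38 to 0.86 over 22 settings), 0.43 for pyruvate and citrate cycle (0.24 to 0.62), 0.43 for complex I (0.23 to 0.55), 0.30 for complexes II to V (0.03 to 0.39) and 0.28 for fatty acid uptake and oxidation (0.13 to 0.59). Few members reached 1.5-fold, with 2 higher and 1 lower of 17 glycolysis genes, 1 and 2 of 24 citrate cycle genes, 3 and 0 of 37 complex I genes, 1 and 0 of 39 genes of complexes II to V, and 2 and 0 of 23 fatty acid genes. Over all genes 7.52% were higher and 33.9% lower. With edgeR's TMM total, under which 21.6% of all genes were higher and 16.2% lower, the higher counts became 14, 14, 20, 12 and 9 and the lower counts were all 0. With the spike-in total, under which 2.29% were higher and 65.6% lower, the higher counts were all 0 and the lower counts 2, 10, 14, 23 and 13. Matched barcodes, under which all genes had 8.26% higher and 42.1% lower, gave 1, 0, 1, 0 and 2 higher genes in the same order. The lower counts were 2, 1, 4, 10 and 5. With these at equal weight per cell 12.5% of all genes were higher and 42.7% lower. The lists then held 4, 0, 4, 1 and 2 higher and 1, 4, 1, 4 and 6 lower genes. Ndufa8 (1.75-fold, 1.52 to 2.03), Ndufb5 (1.68-fold) and Ndufs8 (1.62-fold) were the higher complex I genes, and Ndufa4, the most abundant of the list, ran from 287 over 1115 to 3706 CPM per fixed cell and from 360.0 over 1028 to 2441 CPM per live cell. Atp5d of the ATP synthase was 1.56-fold higher and Cox6a2, the muscle subunit of cytochrome c oxidase, had 2689 CPM among live and 2343 CPM among fixed cells. Eno3, the muscle enolase gene, was 1.57-fold higher (1.43 to 1.74) and Dlst of the citrate cycle 1.82-fold higher (1.51 to 2.21). Hk2, the insulin-responsive hexokinase gene, was 1.62-fold lower. Acaa2 (1.57-fold) and Acads (1.78-fold) of fatty acid oxidation were higher, Fabp3, the fatty acid carrier of muscle, had 2366 live and 2828 fixed CPM, and Lpl, which frees fatty acids from lipoproteins, was 1.43-fold lower (1.37 to 1.50), short of the threshold.

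**Figure D4:**
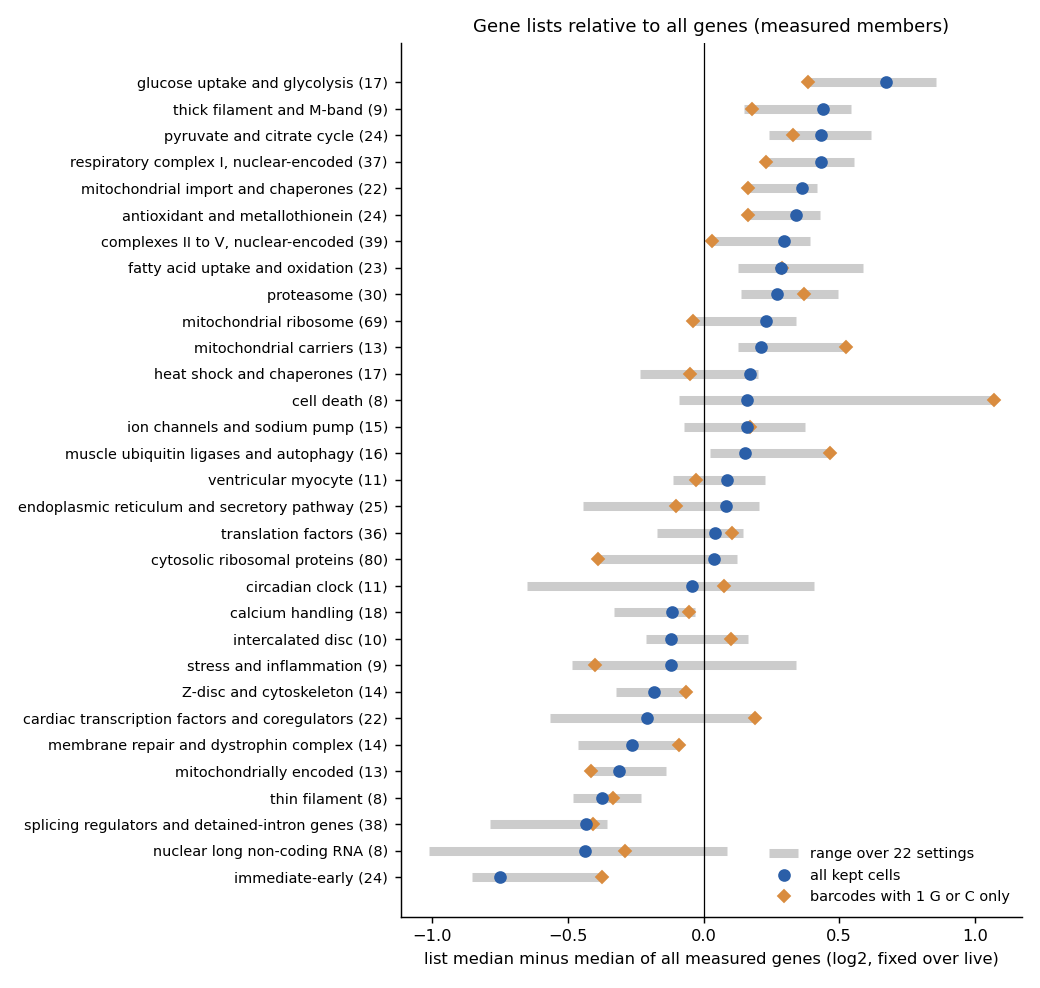
Median log2 ratio of each gene list minus the median of all measured genes, for lists with at least 8 measured members (number in brackets); circles are all kept cells, diamonds the 8 fixed and 31 live cells with 1 G or C in the barcode, and grey bars the range over 22 settings. Immediate-early genes lie lowest at -0.75 and glycolysis highest at 0.67, and ribosomal protein genes go from 0.04 to -0.39 with matched barcodes.

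Mitochondrial sequence took a smaller share of the counts in fixed cells, mainly through its ribosomal RNA. Several nuclear loci hold nearly the same sequence as a mitochondrial gene, and a 60-base stretch from the end of the gene or of its copy shows why a 3' read need not tell them apart. Positions are GRCm38 with GENCODE M21, and a base that differs within a pair is in capitals.
mt-Co1, chrM:6813-6872, plus strand: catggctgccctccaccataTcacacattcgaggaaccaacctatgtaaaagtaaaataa
Gm13340, chr2:22588103-22588162, minus strand: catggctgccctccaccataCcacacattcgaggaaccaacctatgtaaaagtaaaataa
Gm29216, chr1:24615706-24615765, minus strand: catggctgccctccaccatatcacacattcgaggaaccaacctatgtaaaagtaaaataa
mt-Nd3, chrM:9744-9803, plus strand: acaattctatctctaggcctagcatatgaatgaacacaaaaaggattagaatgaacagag
Gm28438, chr1:24612775-24612834, minus strand: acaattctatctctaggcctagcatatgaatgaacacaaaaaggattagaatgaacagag
Gm29216 matches the end of mt-Co1 in every base shown, as Gm28438 does mt-Nd3. By sequence, 13 loci outside the mitochondrial genome were such copies, and they took 18.5% of gene UMIs in both pools. Mitochondrially encoded genes and copies together took 33.4% of fixed and 46.8% of live gene UMIs.

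Most of that gap lay in ribosomal RNA. The mitochondrial rRNA genes mt-Rnr1 and mt-Rnr2 took 6.75% of fixed and 17.9% of live gene UMIs, a 2.64-fold difference. Per cell they ran from 2.41 over 4.96 to 15.3% in fixed and from 7.95 over 16.4 to 27.5% in live cells. Without them, mitochondrial sequence had a median of 30.5% per fixed and 32.7% per live cell, within a range of 9.06 to 52.1% and 20.4 to 39.9%. The messenger genes differed from each other. Counted with their copies, as shares of gene UMIs, the complex I genes mt-Nd3 and mt-Nd5 were 2.86-fold and 2.91-fold lower in fixed cells, mt-Nd6 1.62-fold and mt-Nd1 1.21-fold. The oxidase gene mt-Co1 took 12.6% of fixed and 11.3% of live gene UMIs. On the CPM scale all 13 rows measured were below 0 and 7 were lower (53.8%, where all genes had 33.9%). Their plain median was -0.63, or -0.31 relative to all genes. With matched barcodes 12 of them were lower, where 42.1% of all genes were, with a plain median of -0.84 and a relative median of -0.41. With equal weight per cell 6 of them were lower, with -0.54 and -0.14. Over all cells mt-Nd3 stood at log2 -1.79 beside -1.74 for its copy Gm28438. With matched barcodes mt-Nd3 stood at -1.99 and mt-Nd5 at -1.64, whereas the rRNA genes came closer, mt-Rnr1 to -0.68 and mt-Rnr2 to -0.84 from -1.70 and -1.63. Rows of mt-Co3 and mt-Nd4 themselves are not analysed here.

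Of 80 cytosolic ribosomal protein genes, 1 was higher and 23 lower over all cells, and the 28.8% lower was near the 33.9% among all genes. Their relative median was 0.04, above 0 in 12 and below 0 in 10 of 22 settings. With matched barcodes 51 were lower, with a relative median of -0.39, and with equal weight per cell 37, with -0.15. Rps4x was the higher member (2.27-fold, 1.92 to 2.69). Among the lower members were Rps12 (2.30-fold), Rps27 (2.20-fold) and Rpl41 (1.69-fold); ribosomal protein genes have many processed pseudogenes that can take or give reads. Translation factors held 0 higher and 9 lower of 36, where 33.9% of all genes were lower. With matched barcodes 12 of 32 were lower, where 42.1% of all genes were. Their relative median was 0.04 over all cells, 0.11 with matched barcodes and -0.14 with these at equal weight per cell. It lay above 0 in 19 and below 0 in 3 of 22 settings. Eif3a (2.77-fold) and the cap-binding Eif4e (3.00-fold) were among the lower translation factors. Of 69 mitochondrial ribosome genes 14 were higher and 13 lower, where all genes had 7.52% higher and 33.9% lower. Their relative median was 0.23 over all cells. With matched barcodes it was -0.04, the only one of 22 settings below 0, and 0.10 with equal weight per cell.

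Heat shock and chaperone genes held 2 higher and 5 lower of 17, shares of 11.8% and 29.4% that were near the 7.52% and 33.9% of all genes. With matched barcodes 2 were higher and 7 lower of 15. The inducible chaperone gene Hsp90aa1 was 2.78-fold lower (2.31 to 3.35), with 11 live cells above every fixed cell, and Hspb1 2.04-fold lower. Hspb7, the cardiac small heat shock gene, was 1.78-fold higher (1.46 to 2.18), and Cryab, the abundant crystallin chaperone of muscle, had 1289 live and 1375 fixed CPM. Antioxidant and metallothionein genes held 7 higher and 5 lower of 24 (3 and 5 of 23 with matched barcodes), with Nqo1 (2.20-fold), Txn1 (1.97-fold) and Prdx5 (1.82-fold) higher and the oxidant-responsive factor gene Nfe2l2 (2.05-fold), the thioredoxin inhibitor gene Txnip (1.72-fold) and Mt1 (1.54-fold) lower. Ankrd1, a stretch-responsive muscle gene, was 2.13-fold lower (1.94 to 2.34).

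Cardiac transcription factors and coregulators held 1 higher and 10 lower of 22 (45.5%, where all genes had 33.9% lower). With matched barcodes 0 were higher and 5 lower of 19, where 42.1% of all genes were lower. Esrrg (2.62-fold), a driver of oxidative genes, Mef2a (2.44-fold), Tead1 (1.70-fold) and Ppargc1a (1.59-fold), the coactivator of mitochondrial biogenesis, were lower. The group's median was -0.21 relative to all genes over all cells and 0.19 with matched barcodes (0.05 with equal weight per cell), so its side of the median gene was not the same in both comparisons. The clock gene Per1 (66 and 14 UMIs, 2.89-fold higher) and the cell death gene Bcl2l11 (23 and 72 UMIs, 5.12-fold lower) were the furthest members of the clock and cell death lists on the log2(CPM + 5) scale. Without the added 5 CPM Cry2 of the clock list, at 18.9 live and 6.19 fixed CPM, was 3.05-fold lower.

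Lower ratios went with a larger genomic span of the gene. Among 2773 protein-coding genes with at least 100 UMIs, split into 5 equal groups by genomic span, from a median span of 4332 to one of 303387 bases, the median log2 ratio was -0.05, -0.07, -0.30, -0.46 and -0.73, and the share of lower genes grew from 17.5% to 61.4%. The Spearman coefficient across these genes, which are not independent replicates, was -0.39 with span, -0.36 with transcript length and 0.26 with transcript GC content. With matched barcodes the medians were -0.32, -0.24, -0.29, -0.39 and -0.54 and the coefficient with span -0.13. Within the fixed cells alone, those with 1 G or C in the barcode against those with 3 to 5 gave -0.32, -0.21, -0.01, 0.08 and 0.20, a coefficient of 0.28. The relation between span and the fixed over live ratio was thus weaker with matched barcodes. The contrast within fixed cells holds no live cells and shares its cells with the other comparisons, so it is not a separate result on fixation. The part of barcode composition was not tested. Of the long genes named above, Dmd, Ryr2, Cacna1c, Rbfox1 and Ctnna3 were at -0.47 or lower on the log2 scale with matched barcodes. The median of all genes was -0.42 there, and Ttn did not reach 1.5-fold. Other long genes went the other way, with Camk1d 4.97-fold, Kcnip1 4.96-fold and Jarid2 2.80-fold higher over all cells.

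**Figure D5:**
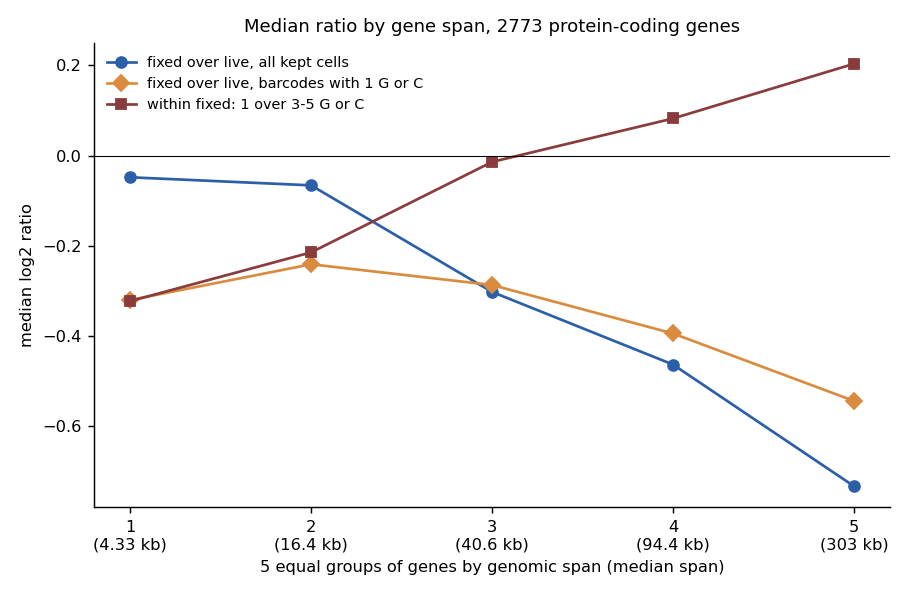
Median log2 ratio of 2773 protein-coding genes in 5 equal groups by genomic span (horizontal axis, median span in kilobases under each group); circles compare all fixed with all live cells, diamonds the cells with 1 G or C in the barcode, and squares, within fixed cells, 1 against 3 to 5 G or C. The first goes from -0.05 to -0.73 and the second from -0.32 to -0.54. The last, which holds no live cells, goes from -0.32 to 0.20.

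A set of predicted genes made of tandem repeat stood far apart between the groups. It was singled out after its values were seen and then defined by sequence among the measured loci. Gm26870, on chromosome 9 at 3000282 to 3038313 (minus strand, lincRNA), repeats with a period of 234 bases, the unit length known for mouse major satellite DNA, the repeat of pericentromeric heterochromatin. The starts of the first and the second unit of its transcript (GENCODE M21, bases 1 to 60 and 235 to 294) show the period, with the base that differs in capitals.
Gm26870, bases 1 to 60: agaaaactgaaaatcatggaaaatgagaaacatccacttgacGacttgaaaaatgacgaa
Gm26870, bases 235 to 294: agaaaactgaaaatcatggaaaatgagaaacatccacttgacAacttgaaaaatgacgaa
Of all measured loci, 12 had a transcript covered by this repeat over at least 50% of its length, 9 on chromosome 9 within that interval or at its edge, 2 on chromosome 2 and 1 on chromosome 14. Since they are near-identical, and 8 of those on chromosome 9 lie antisense to Gm26870, they are summed here. Live cells gave 7696 of their UMIs and fixed cells 213, or 5186 and 87.8 CPM, a 59.0-fold difference (51.5 to 68.0). The sum ran from 0 over a median of 207 to 48746 CPM per live cell and from 0 over 58.2 to 1094 CPM per fixed cell. The groups overlapped at the low end, and 10 of 31 live cells lay above every fixed cell. In the highest live cell the repeat took 4.87% of nuclear-encoded UMIs. The 3 highest live cells held 77.5% of the live UMIs, and without them the pools were 18.1-fold apart, while the medians over cells were 3.56-fold apart. Against the 8 fixed cells with matched barcodes (83.5 CPM) the pooled difference was 62.1-fold, about as large as over all fixed cells.

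Both groups carried the markers of ventricular myocytes. All 12 markers had UMIs in both, with a median sum of 28540 CPM per fixed and 36035 CPM per live cell. Other cell types were at trace level: endothelial markers had medians of 54.1 and 63.2 CPM, atrial markers 66.7 and 116, and fibroblast, endocardial, mural, mesothelial and macrophage markers 0 in both. All 6 lymphocyte markers had 0 UMIs. Haemoglobin and other erythroid genes gave 779 live and 49 fixed UMIs, of which 744 came from 1 live cell, the only cell with over 2% of UMIs from other cell types.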

How the data were processed

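Single ventricular cells of 1 deposited library were analysed. Per the labels, the authors deposited counts: UMI and read counts per gene and cell barcode, not normalized, with a metadata table that holds percent values, left unused. Per the submitters' processing notes the tools were featureCounts and STAR 2.5.4b and the build GRCm38. The sources used here do not give the annotation, UMI tool or strand setting; without strand, a gene's reads cannot be separated from those of an antisense or overlapping gene. Of 22679 gene IDs, 22648 matched GENCODE M21, which gave names and coordinates. UMIs were summed per group to CPM of nuclear-encoded UMIs. Ratios carry exact 95% Clopper-Pearson intervals. Named genes were the 12 highest and 12 lowest official protein-coding genes with at least 100 UMIs, 50 CPM and a UMI in 50% of cells of the higher pool and no cell above 20% of its UMIs, the 4 most abundant and 3 furthest members of each list, all immediate-early, mitochondrial and nuclear RNA list members, and the 20 most abundant genes. Some genes that this rule names are not reported here. The comparison, the 47 lists and this rule were chosen with earlier results of these data known. Copies of mitochondrial genes matched at 90% identity over 80% of a transcript (BLAST 2.17.0). No doublet caller was run. Alternatives were other totals, weights, filters, thinning and read counts, and, chosen after seeing the data, 5 settings on barcodes, totals and deep cells. The procedure was tested on simulated data. Software was edgeR 4.0.16 in R 4.3.3, and scipy 1.17.1, pandas 2.3.3, matplotlib 3.10.9 and numpy 2.4.6 in Python 3.11.15.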

Additional observations from a re-analysis of the deposited data

Results flagged for a closer look

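The table holds 24 barcode columns without a label, which entered no comparison, and their signal was looked at because no control wells are named. They summed to 1222 gene UMIs, 8 to 201 per column with a median of 32.5, and 47 ERCC UMIs, which is 0.0248% of all UMIs. All 24 barcodes have 5 G or C bases, as 17 of the fixed cells do. Whether these wells were empty is not given in the sources used here.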

How the results depend on the processing

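No paired analysis was possible because each group is 1 pool and the labels give no replicate numbers. Leaving out each library in turn was not run, since the metadata name 1 library. Beside 593 higher and 2671 lower genes, the counts were 952 higher with all UMIs as the total, 1702 and 1275 with TMM factors, 1900 and 1148 with median-of-ratios factors, 181 and 5175 with the spike-in total, 1369 higher with read counts, 218 and 1499 with a pseudocount of 20 CPM, 1060 and 4226 with genes from 10 UMIs and 111 and 507 with genes from 200 UMIs. With the 20 abundant loci left out of the total, a setting chosen after seeing the data, 1115 were higher. The number of genes per cell, 1086 higher in fixed cells, turned to -41.24 at 5000 and -195.2 at 20000 UMIs per cell. The erythroid median turned to 0.25 without the live cell over 2% non-myocyte RNA, and Fbxo32 to 0.052 with matched barcodes and equal weight per cell, also chosen after seeing the data. Over 138 named genes and 34 lists, 977 gene values and 437 list values differed from the reported log2 ratio by more than the half-width of its counting interval (for a list, that of its summed ratio), and 1885 and 274 did not. Thinning to 20000 UMIs gave 758 higher and 2653 lower genes. Depth limits low genes: 3 UMIs over a pool correspond to 2.02 CPM in live and 1.24 CPM in fixed cells. Causes were not tested.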

Other observations

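Most measured genes of protein turnover and organelle upkeep lay under 1.5-fold, and the members named here were chosen after their values were seen. Proteasome genes held 2 higher and 4 lower of 30, with a median 0.27 above that of all genes (0.14 to 0.50 over 22 settings). Psmc6, an ATPase of the regulatory particle, had 33.8 CPM among fixed and 62.0 CPM among live cells. Of 16 muscle ubiquitin ligase and autophagy genes, 2 were higher and 3 lower. Trim63, a muscle ligase gene, was at 168 fixed and 177 live CPM, while Fbxo32, the atrogin gene, was at 96.9 and 156 CPM (log2 0.052 above live with matched barcodes and equal weight per cell) and Ulk1, the kinase that starts autophagy, had 21 fixed and 51 live UMIs. Endoplasmic reticulum and secretory genes held 1 higher and 5 lower of 25, and the chaperone gene Hspa5 was at 212 fixed and 287 live CPM. Among 22 mitochondrial import and chaperone genes 1 was higher and 0 lower. The higher member, Timm50 of the inner membrane translocase, had 93 fixed and 24 live UMIs, a 2.37-fold difference (1.50 to 3.89, counting error only). Slc25a4, the ADP/ATP carrier of muscle, was the most abundant of 13 carrier genes, at 4547 fixed and 3586 live CPM. Over all genes 7.52% were higher and 33.9% lower. With matched barcodes the proteasome list held 2 higher and 6 lower of 29, the secretory list 0 and 9 of 19, the import list 2 and 5 of 22, the carriers 0 and 3 of 13 and the ligase list 3 and 1 of 16.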
